A study of Zea mays subsp. mays and Zea mays subsp. parviglumis and Zea luxurians with 126 samples.

Results

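MiR171 had 56 target genes in the cleavage tables of *Zea* anthers, of 2539 genes with a miRNA site at the same limit. A gene was a member when a table listed a site for a small RNA whose name contains miR171 with no further digit, when the Allen score of that pairing was at most 4, and when the target was not a *PHAS* locus, the source of phasiRNAs. The Allen score adds penalties for mismatches, so that 0 stands for full pairing. The 56 genes held 364 of 13349 sites, a site being counted once for each library, transcript and position. The B73 genome had 23 member genes of 710, HP301 had 6 of 230, Il14H had 6 of 219 and Oh43 had 7 of 243. Among the teosintes, TIL11 had 7 of 543, TIL25 had 5 of 301 and RIL003 had 2 of 293. Different genomes carry different identifiers, so that a gene shared by all lines is counted in each. The tables name neither the genes nor their position on a chromosome, and none of the 56 identifiers matched the RefSeq gene table. The study's list of pangene sets, which joins corresponding genes across genomes, gives the product of the miR171 sets as GRAS, and this was not checked here.

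MiR171 is an old plant miRNA family whose known targets in *Arabidopsis* are the HAIRY MERISTEM genes, GRAS transcription regulators that keep meristem cells undifferentiated. It pairs with its target over nearly its full length, and the ARGONAUTE protein that carries it cuts the mRNA opposite the middle of the miRNA. The downstream piece keeps a free 5′ end at the cut, and nanoPARE, a method that sequences 5′ ends from little RNA, records that end. The deposited signal counts reads whose 5′ end falls on the cut, per 1000000 reads of the library (RPM). The authors' adjusted p-value belongs to the pair of small RNA and target, and how it was computed is not given in the sources used here. The signal is not divided by the amount of the target mRNA, so more mRNA and more cutting cannot be told apart. In whole anthers, fewer cells of a type and less RNA per cell cannot be told apart either.

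The libraries numbered 63, with 2 or 3 from distinct plants in each of 24 groups. The teosintes were TIL11 (*Z. mays* ssp. *parviglumis*), sampled at 0.4, 0.7, 1, 1.5 and 2 mm anther length, TIL25 (*Z. mays* ssp. *mexicana*), at 0.4 and 1.5 mm, and RIL003 (*Z. luxurians*), at 0.4, 0.7 and 1.5 mm. The maize inbreds were B73, Oh43, Il14H and HP301, each sampled at 0.4 and 2 mm. In maize 0.4 mm was premeiotic and 2 mm meiotic. In TIL25 0.4 mm was premeiotic, and the stage of its 1.5-mm anthers is not given in the sources used here. In TIL11 and RIL003 0.4 and 0.7 mm were premeiotic and 1.5 mm or more meiotic. *ago18*HM plants were homozygous for mutant alleles of all 3 *AGO18* genes, with CRISPR frameshift deletions in *ago18a* and *ago18b* and a *Mu* transposon insertion in *ago18c*. *ago18*HT plants were their siblings and carried the same alleles in the heterozygous state, so the mutation was not compared with plants that lack it. Both lacked the editing transgene, were analysed with the B73 gene models and were sampled at 0.5, 2 and 5 mm. Maize plants grew in a greenhouse and teosintes in growth chambers, and variety and growth place cannot be told apart.

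Depth, recovered from the steps between RPM values, had its median at 7.55 M reads and its extremes at 1.35 and 18.7 M (M, 1000000 reads). The 3 TIL25 libraries at 0.4 mm, at 1.71 to 2.56 M, and the 3 *ago18*HM libraries at 0.5 mm, at 1.35 to 5.40 M, included the shallowest. The cleavage signal was small everywhere. Of 320 values of the 33 genes described one by one, 210 were listed (65.6%), with a median of 2 reads, and 137 of the listed values (65.2%) rested on at most 3 reads. Of the 210, 66 were not whole reads within 0.01 of a read, in 23 of the 33 genes. How the authors counted reads that map to more than 1 gene is not given in the sources used here, and these values are uncertain to that extent. A gene that a table does not list was taken as 0 RPM.

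Mature miR171a and miR171c are shown because the position of the cut depends on which form is paired. Both were annotated in all 7 varieties analysed. In the B73 genome, however, most passing sites were assigned to a separate entry of miRBase, zma-miR171a-3p, with 72 sites of 6 genes, of which 72 passed; its sequence is not shown here. The form named miR171a had 2 sites in that genome, at an Allen score of 4, and 0 passed. The seed, bases 2 to 8, is in capitals.
miR171a: uGAUUGAGccgugccaauauc
miR171c: uUGAGCCGcgucaauaucucc
The seeds differ, and yet the miRNAs are nearly the same sequence read from a start 3 nt apart. Below, capitals mark the bases that both share when miR171c is laid 3 nt downstream on miR171a.
miR171a, shared bases: ugaUUGAGCCGuGcCAAUAUC
miR171c, shared bases: UUGAGCCGcGuCAAUAUCucc
Over the 18 nt of overlap, 16 bases match. The 2 substitutions, counted from the 5′ end of miR171a, are U12C and C14U. MiR171e-5p, from the other arm of a miR171 hairpin and also found under the name miR170, was annotated in 5 varieties and has an unrelated seed.
miR171e-5p: uGUUGGCUcggcucacucaga

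Positions listed for the 2 forms differed by the same 3 nt. Among the 33 genes, 11 had cuts listed at 2 positions, and in 11 of 11 the positions were exactly 3 nt apart. A site is listed for its pairing with a small RNA, so for miR171a and miR171c the offset of their sequences fixes this spacing. It is therefore no separate evidence for the shift. In 10 of the 11 the upstream cut was assigned to miR171c, and in Zm00001eb249840 to zma-miR171b-3p. The upstream position of Zm00001eb249840, Zm00027ab435900, Zm00028ab257020, Zv00002aa006820, Zv00002aa022961 and Zx00003aa020698 passed the authors' adjusted p below 0.05 in no library. The downstream cut was assigned to miR171a or, in the B73 genome, to the miRBase form zma-miR171a-3p. No library listed both positions in the same transcript, and each of the 364 member sites was the only miR171 site of its transcript in its library. The tables therefore give 1 form per gene and library, and whether this reflects the anther or a choice made in the authors' pipeline was not tested.

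MiR171a, or zma-miR171a-3p in the B73 genome, was the form at most genes, and miR171c at 1 pangene set. Of the 210 listed values, 126 in 26 genes were assigned to miR171a, 45 in 6 genes of the B73 genome to zma-miR171a-3p, 37 in 11 genes to miR171c and 2 to zma-miR171b-3p. The pangene set numbered 5 here (Zm00001eb023010 in B73, Zm00027ab022890 in HP301, Zm00028ab022970 in Il14H and Zv00002aa001958 in TIL11) took 26 of the 37 miR171c values, with 4 miR171a values and 1 value of zma-miR171a-3p. In B73 and *ago18* libraries, Zm00001eb023010 was cut at transcript position 1378 by miR171c in 10 libraries and at 1381 by zma-miR171a-3p in 1. In TIL11, Zv00002aa001958 was cut at position 1322 by miR171c in 9 libraries and at 1325 by miR171a in 3. Set 1 had 26 values of miR171a and, in its B73 gene, 10 of zma-miR171a-3p, and sets 6 and 7 had miR171a values only. Outside set 5, miR171a was the more frequent form in every gene with both miR171a and miR171c except Zm00039ab023320. An example is Zv00002aa006820 of set 3, with 12 libraries at position 1605 by miR171a and 1 at position 1602 by miR171c. The site at 1602 did not pass the authors' adjusted p.

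Listed miR171 sites passed the authors' threshold (adjusted p below 0.05) more often than those of other miRNAs. Of the 364 sites, 282 passed (77.5%), against 4377 of 12985 sites of the other miRNAs (33.7%). The shares are a description, since sites share libraries and genes. They differed with the pairing, and whether the Allen score enters the authors' p-value is not given in the sources used here. At an Allen score of at most 2, 279 of 283 miR171 sites passed (98.6%), against 86.7% for the other miRNAs, and above 2, 3 of 81 passed (3.70%), against 16.4%. At an Allen score of 0 all 71 miR171 sites passed, and so did all 447 of the other miRNAs. At 2.5 the miR171 share was 3 of 7. At 3, 3.5 and 4, none of 9, 23 and 42 miR171 sites passed. The membership limit of 4 therefore lies well above the scores at which miR171 sites passed. Just inside it were 42 sites of 12 genes, with a highest signal of 1.95 RPM, and just outside it, at 4.5, 95 sites of 23 genes, none of which passed either.

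**Figure D1:**
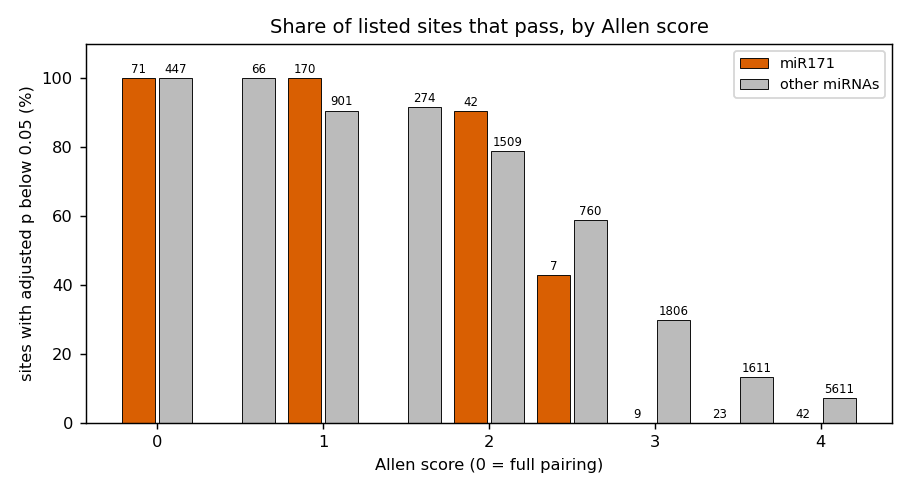
Share of listed sites that passed the authors' adjusted p below 0.05 (y axis, percent) by Allen score (x axis), for miR171 sites and for sites of other miRNAs on targets outside *PHAS* loci; the number above each bar is the number of sites. All miR171 sites at scores 0 and 1 passed (71 and 170 sites), and none of the 9, 23 and 42 sites at 3, 3.5 and 4 did.

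The member genes are described in 2 groups, divided by the list and the passing rule. That rule needs a site detected in replicates, so a difference in signal between the groups is partly built in. The 33 genes described one by one are 28 genes of 7 pangene sets and 5 further genes whose site passed in 2 or more replicates of the same group. Their Allen scores ran up to 2 at the best site, and the highest signal of a gene lay between 0.175 and 2.31 RPM, with a median of 0.795 RPM. The 23 remaining genes were listed in at most 5 libraries and 15 of them in 1 library, with highest signals of 0.00633 to 0.378 RPM and a median of 0.126 RPM, so that the ranges overlap. Of these 23, 14 never passed, the 7 with an Allen score of at most 2 all passed in at least 1 library, and 17 belonged to the B73 genome, whose set of miRNA names also included the miRBase entries. The authors' list of pangene sets was itself drawn from these samples, so that the signal of its genes is a description and not independent evidence. Set 1 is Zm00001eb186770, Zm00027ab189430, Zm00028ab192270, Zm00039ab190600, Zv00002aa017188 and Zx00003aa015437. Set 2 is Zm00001eb429450, Zm00027ab435900, Zm00028ab441590, Zm00039ab438900, Zv00002aa039395 and Zx00003aa035504. Set 3 is Zm00001eb074460, Zm00027ab074610, Zm00039ab074730, Zv00002aa006820 and Zx00003aa006174. Set 4 is Zm00027ab254560, Zm00028ab257020, Zm00039ab255230, Zv00002aa022961 and Zx00003aa020698. Sets 6 and 7 have 1 gene each, Zm00028ab075320 in Il14H and Zv00002aa034789 in TIL11.

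In maize inbred lines, cleavage of miR171 targets was lower in 2-mm (meiotic) than in 0.4-mm (premeiotic) anthers for 5 of 5 pangene sets tested, and 1 of the 5, set 1, passed the test. Across the 27 pangene sets of all miRNAs tested, 29.6% were called, 22.2% higher and 7.41% lower at 2 mm. The sets of other miRNAs numbered 22, of which 6 were called higher and 1 lower. Called or not, 13 of all 27 sets were lower at 2 mm. The median log2 difference was -0.80 over the 5 miR171 sets and 0.08 over all 27. With each library centred on its mean over all sets, that median was -0.22, the calls were 6 higher and 4 lower, and set 1 was the 1 miR171 set called.

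Set 1 has a gene in each of the 4 lines. In B73, Zm00001eb186770 had 0 and 0.462 RPM at 2 mm, against 0.681 and 0.687 RPM at 0.4 mm. In Il14H, Zm00028ab192270 had 0 and 0.116 RPM at 2 mm, against 0.175, 1.01 and 0.778 RPM at 0.4 mm. In both lines every 2-mm library lay below every 0.4-mm library. In Oh43, Zm00039ab190600 had 0.181, 0.557 and 0.112 RPM at 2 mm, against 0.453 and 0.633 RPM at 0.4 mm. In HP301, Zm00027ab189430 had 0.107 and 0.586 RPM at 2 mm, against 0.660 and 0.0948 RPM at 0.4 mm. The lengths overlapped in these lines, and in HP301 the spread between replicates exceeded the difference. Over the 4 lines set 1 averaged 0.236 ± 0.234 RPM at 2 mm and 0.575 ± 0.290 RPM at 0.4 mm (SD, n = 9 libraries each). The log2 difference was -1.23 (SE 0.46, limma adjusted p = 0.0494, range over alternatives 0.00693 to 0.217). This call was narrow: an exact permutation test within lines gave p = 0.0256 and adjusted p = 0.0767, and leaving out any 1 of 13 of the 18 libraries ended it, with differences of -1.30 to -0.98 and adjusted p of 0.0612 to 0.119. It held without each of B73-2mm replicate 2, HP301-0.4mm replicate 2, HP301-2mm replicate 2, Il14H-0.4mm replicate 3 and Oh43-2mm replicate 2.

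In Oh43, set 3 and set 2 had the highest premeiotic signals. Zm00039ab074730 of set 3 had 0.0978, 0.278 and 0.335 RPM at 2 mm, against 1.09 and 0.733 RPM at 0.4 mm. Zm00039ab438900 of set 2 had 0.174, 0.278 and 0.224 RPM at 2 mm, against 1.02 and 0.633 RPM at 0.4 mm. Neither pair of lengths overlapped in Oh43. The other lines with a set 3 gene overlapped. Zm00027ab074610 of set 3 had 0.321 and 0.742 RPM at 2 mm in HP301, against 1.74 and 0 RPM at 0.4 mm. Zm00001eb074460 had 0 and 0.693 RPM at 2 mm in B73, against 0.378 and 0.611 RPM at 0.4 mm. In each of these a single library carried the direction, and without HP301-0.4mm replicate 2, the one at 0, set 3 was called, with a difference of -1.43 and an adjusted p of 0.0449. Zm00028ab441590 of set 2 had 0.133 and 0.0451 RPM at 2 mm in Il14H, against 0.175, 0.508 and 0.633 RPM at 0.4 mm, again without overlap, while in B73 set 2 went the other way: Zm00001eb429450 had 0.202 and 0.462 RPM at 2 mm, against 0.151 and 0.0764 RPM at 0.4 mm. With all 18 libraries the log2 difference was -0.80 for set 3 (SE 0.65, adjusted p = 0.398) and -0.70 for set 2 (SE 0.40, adjusted p = 0.177).

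Set 5, listed mostly for miR171c, had its highest maize value in HP301. Zm00027ab022890 had 0.150 and 0.152 RPM at 2 mm, against 1.43 and 0.190 RPM at 0.4 mm. In B73, Zm00001eb023010 had 0 and 0.115 RPM at 2 mm, against 0.303 and 0.305 RPM at 0.4 mm. Il14H ran against this, with Zm00028ab022970 at 0.795 and 0.116 RPM at 2 mm, against 0.175, 0.287 and 0 RPM at 0.4 mm. The log2 difference over the lines was -0.52 (SE 0.58, adjusted p = 0.535). Set 4 was cut at low levels, between 0 and 0.447 RPM at 2 mm and between 0.0865 and 0.712 RPM at 0.4 mm in the 3 lines that have it (log2 difference -0.91, SE 0.50, adjusted p = 0.177). Counted gene by gene within lines, 18 of 21 named maize genes had a lower mean log2 value at 2 mm, the exceptions being set 2 in B73, set 3 in HP301 and set 5 in Il14H. In 7 of the 21 every 2-mm library lay below every 0.4-mm library, and in 1 above. Among genes listed in at least 3 libraries of a line these were 7 and 1 of 20 members, against 22% below and 23.3% above of all 232 target genes, so that separation in this sense was common in these libraries. Over all 27 sets and all lines together, the lengths did not overlap in 11.1% of sets with the 2-mm libraries higher and in 0% with them lower, and no miR171 set was among them.

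**Figure D2:**
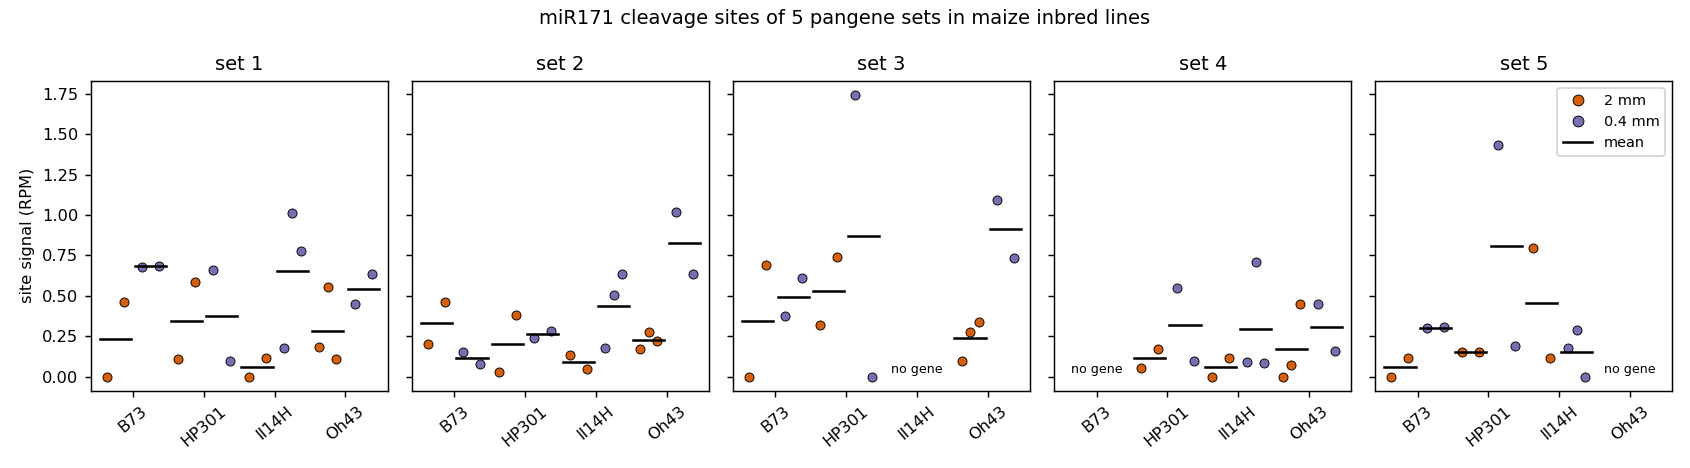
Signal at miR171 sites (y axis, RPM) of 5 pangene sets in 4 maize inbred lines, with 2-mm anthers left of 0.4-mm anthers in each line; each point is 1 library and each bar the mean of 2 or 3. Set 1 lies lower at 2 mm in B73 and Il14H without overlap, while HP301 overlaps in sets 1 to 4.

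In TIL11, 5 of 6 genes tested were lower in meiotic (1.5 and 2 mm) than in premeiotic (0.4 and 0.7 mm) anthers, and 1 passed the test. Of 192 TIL11 genes with a site of any miRNA in at least 3 libraries, 2.6% were called, 1.04% higher and 1.56% lower. Called or not, 57.8% of the 192 genes were lower in meiotic anthers. The median log2 difference was -1.49 over the 6 miR171 genes and -0.16 over all 192.

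The gene that passed was Zv00002aa006820 of set 3. It had 0.448 and 0.736 RPM at 0.4 mm, 0.612, 0.800 and 1.92 RPM at 0.7 mm, and 0.157, 0.480 and 0.980 RPM at 1 mm. It then had 0.652, 0.187 and 0.283 RPM at 1.5 mm and 0.0540, 0.0413 and 0 RPM at 2 mm. The 2-mm libraries lay below all others, and 1 library of 1.5 mm lay within the premeiotic range. The mean was 0.203 ± 0.244 RPM in meiotic anthers (SD, n = 6) and 0.903 ± 0.582 RPM in premeiotic anthers (SD, n = 5), and the log2 difference was -1.85 (SE 0.45, limma adjusted p = 0.0461, range over alternatives 0.00404 to 0.485). The exact permutation p was 0.0108, with an adjusted p of 0.485. The smallest p of this test was 0.00216, at which 1 gene alone could not pass after adjustment over 192 genes. The call was lost without each of 8 of the 14 libraries, with differences of -2.01 to -1.63 and adjusted p of 0.0506 to 0.138; it was kept without TIL11-0.7mm replicates 1 and 2, TIL11-1.5mm replicate 1 and the 3 libraries of 1 mm.

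Zv00002aa017188 of set 1 was low in all meiotic libraries but 1. It had 0.445 and 0.339 RPM at 0.4 mm, 1.14, 0.487 and 0.726 RPM at 0.7 mm, 0.435, 0.561 and 0.817 RPM at 1 mm, 0, 0.187 and 0 RPM at 1.5 mm, and 0, 1.03 and 0 RPM at 2 mm. The library at 1.03 RPM, TIL11-2mm replicate 2, rested on 5 reads. With it the log2 difference was -1.85 (SE 0.61, adjusted p = 0.111), and without it -2.43 (adjusted p = 0.00584). Zv00002aa001958 of set 5 had its highest values at 0.4 mm, 0.556 and 1.35 RPM, followed by 0.254, 0.122 and 0.726 RPM at 0.7 mm, 0.109, 0.0935 and 0.163 RPM at 1 mm, 0, 0.187 and 0 RPM at 1.5 mm, and 0.142, 0.206 and 0.302 RPM at 2 mm. Its value of 1.35 RPM lay at position 1325, assigned to miR171a, and not at 1322, assigned to miR171c. The log2 difference of this gene was -1.58 (SE 0.44, adjusted p = 0.0629), and it passed without TIL11-0.7mm replicate 2 (-1.79, adjusted p = 0.0454) or TIL11-1.5mm replicate 2 (-1.83, adjusted p = 0.0308).

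The other TIL11 genes were less even. Zv00002aa022961 of set 4 had 1.02, 0.0183 and 1.09 RPM at 0.7 mm and no value above 0.508 RPM at any other length (log2 difference -1.40, SE 0.64, adjusted p = 0.255), and without TIL11-0.7mm replicate 2, the low one, the difference was -1.95 and passed (adjusted p = 0.0454). The values of 0.0183 and 1.09 RPM, and 0.111 RPM in a library of 0.4 mm, came from position 1243, assigned to miR171c with an Allen score of 4, which passed the authors' threshold in 0 of 3 libraries; the other values lay at position 1246, assigned to miR171a with a score of 1, and passed in 6 of 6. Zv00002aa039395 of set 2 ranged from 0.00925 to 0.714 RPM over all lengths (log2 difference -0.54, SE 0.47, adjusted p = 0.642). Zv00002aa034789 of set 7, found in TIL11 alone among the varieties of the list, was the 1 gene with a higher mean in meiotic anthers. It was listed in 4 libraries, at 0.111 RPM in 1 of 0.4 mm, 0.132 and 0.562 RPM in 2 of 1.5 mm and 0.142 RPM in 1 of 2 mm, and its difference of 0.60 (SE 0.47, adjusted p = 0.591) was within the spread.

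**Figure D3:**
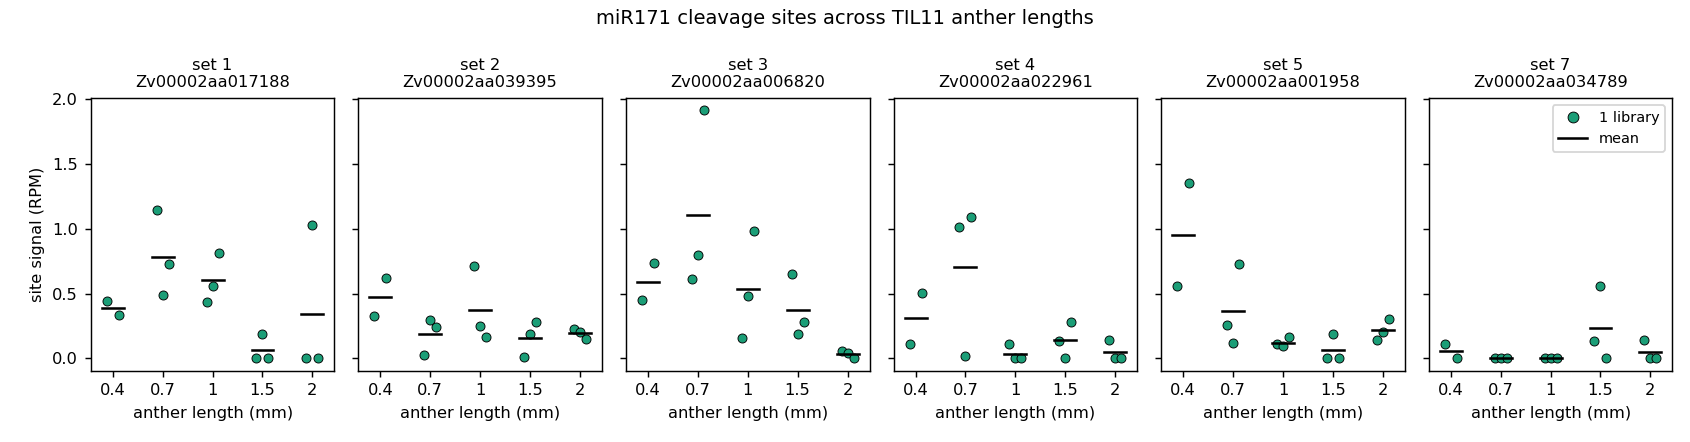
Signal at miR171 sites (y axis, RPM) of 6 TIL11 genes by anther length (x axis, mm); each point is 1 library and each bar the mean of 2 or 3. Zv00002aa006820 reaches 1.92 RPM at 0.7 mm and stays at or below 0.0540 RPM at 2 mm, and the 2-mm point of Zv00002aa017188 at 1.03 RPM is a single library.

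In TIL25 the signals of miR171 genes were listed almost only at 1.5 mm. The libraries of 0.4 mm were the shallowest of the varieties. Limits of detection are given below for each library alone. A limit for the 3 libraries of 0.4 mm together would be lower and was not computed. Of the 4 genes tested, 3 were listed in all 3 libraries of 1.5 mm and in none of 0.4 mm, so they met the minimum of 3 libraries only through the length at which they were high. The 2 genes that passed the test are among these 3, and their direction and separation were fixed by that minimum. Of 53 TIL25 genes with a site of any miRNA in at least 3 libraries, 37.7% were called, 35.8% higher and 1.89% lower. Calls of this direction were thus common in these libraries. The calls below are therefore a description of these libraries. With the values of each library centred on its mean over all genes, the median difference of all genes moved by 1.24, the calls were 1 higher and 1 lower in place of 19 and 1, and no miR171 gene passed.

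Zx00003aa006174 of set 3 had 0.965, 1.93 and 2.31 RPM at 1.5 mm, the highest signal of any member gene, and was listed in none of the 3 libraries of 0.4 mm. A single read at 0.4 mm was worth 0.390 to 0.586 RPM, and the limit that 0 reads allow, 3 reads, was 1.17 to 1.76 RPM per library. The values of 1.93 and 2.31 RPM lay above this limit and the other did not. The log2 difference of 4.12 (SE 0.47, limma adjusted p = 0.00215, range over alternatives 0.000522 to 0.241) depends on the pseudocount of 0.1 RPM and is no bound on a fold. Zx00003aa015437 of set 1 had 0.502, 1.15 and 0.189 RPM at 1.5 mm, resting on 3, 5 and 1 reads, and was not listed at 0.4 mm. It was called (2.59, SE 0.62, adjusted p = 0.0209), but no longer without TIL25-0.4mm replicate 2 or replicate 3 (2.59 each, adjusted p = 0.0756 and 0.0758). Its 1.5-mm values lay below the limit of each 0.4-mm library, so its difference was not detectable library by library at this depth.

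Zx00003aa035504 of set 2 had 0.0402, 1.53 and 1.66 RPM at 1.5 mm and was not listed at 0.4 mm (log2 difference 2.88, SE 1.06, adjusted p = 0.0899). The exact permutation test gave p = 0.1 for this gene and for both called ones, the smallest value that 3 against 3 libraries allow. Zx00003aa020698 of set 4 was the only member listed at 0.4 mm. It had 0.335, 1.39 and 0.756 RPM at 1.5 mm, against 1.95, 0 and 0 RPM at 0.4 mm. The value of 1.95 RPM rested on 5 reads at position 1185, assigned to miR171c with an Allen score of 4, and did not pass the authors' threshold; the 1.5-mm reads lay at position 1188, assigned to miR171a with a score of 1, and passed in 3 of 3 libraries. With this library the difference was 1.58 (SE 1.33, adjusted p = 0.549), and without it 3.04 (adjusted p = 0.0184).

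In RIL003, whose transcripts the authors assembled themselves and whose genes are in no pangene set, both member transcripts were lower at 1.5 mm than at 0.4 and 0.7 mm and neither passed. Of 91 RIL003 transcripts tested, 49.5% were called, 28.6% higher and 20.9% lower. Called or not, 53.8% of the 91 were lower at 1.5 mm. RIL003_24338 had 0.223, 0 and 0.612 RPM at 0.4 mm, 2.19 and 0.898 RPM at 0.7 mm, and 0.137, 0.406 and 0.250 RPM at 1.5 mm. RIL003_9584 had 0.445, 0.211 and 2.06 RPM at 0.4 mm, 0.312 and 0.673 RPM at 0.7 mm, and 0.414, 0.445 and 0.0162 RPM at 1.5 mm. The 2 transcripts thus had their highest libraries at different premeiotic lengths. The log2 differences were -0.92 (SE 0.71, adjusted p = 0.313) and -0.99 (SE 0.83, adjusted p = 0.341). As a share of the summed miRNA site signal of a library, miR171 sites made up 0.171 to 2.70% at 0.4 mm, 0.859 to 1.85% at 0.7 mm and 0.00586 to 0.0156% at 1.5 mm. The shares at 1.5 mm lay below all others. The miR171 signal itself averaged 1.18 RPM at 0.4 mm, 2.03 RPM at 0.7 mm and 0.556 RPM at 1.5 mm. This change was far smaller than that of the share, because the summed signal of all miRNA sites was much larger at 1.5 mm. Centring likewise subtracts a mean that was higher at 1.5 mm. With each library centred on its mean over all transcripts, the median of all transcripts moved by 1.37, the calls were 22 higher and 44 lower in place of 26 and 19, and both member transcripts were called lower (-2.29 and -2.36, adjusted p = 0.0141 and 0.0140).

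**Figure D4:**
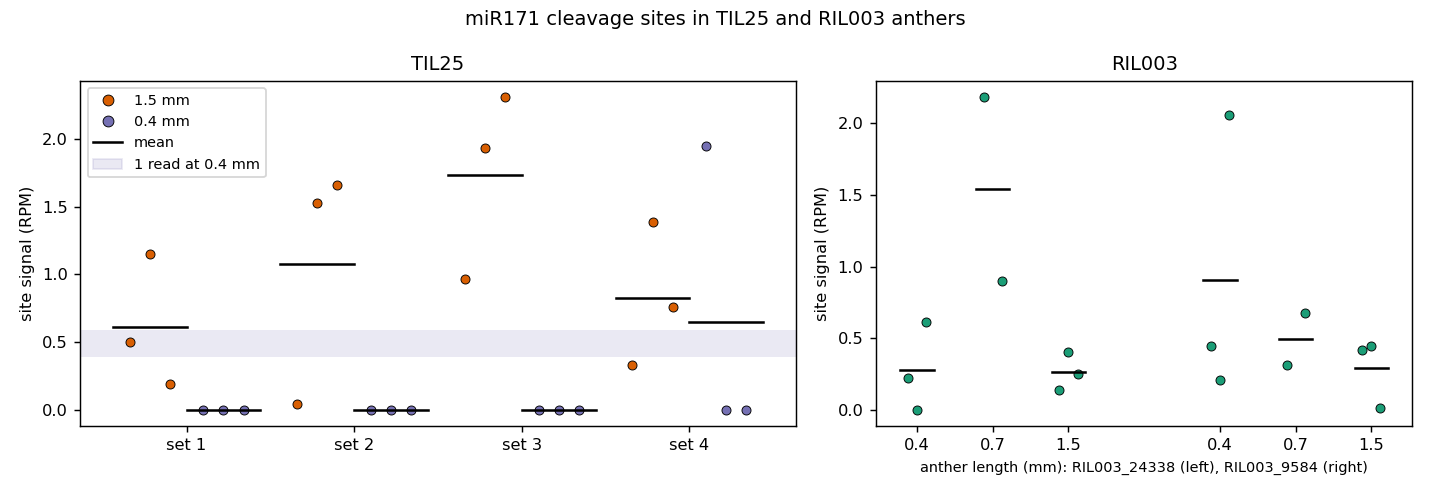
Signal at miR171 sites (y axis, RPM). Left, 4 TIL25 genes by pangene set, 1.5-mm anthers left of 0.4-mm anthers, with the band marking what 1 read is worth in the 0.4-mm libraries (0.390 to 0.586 RPM); right, the 2 RIL003 transcripts by anther length. Points are libraries and bars are means; 3 of the 4 TIL25 genes were unlisted in every 0.4-mm library.

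Between teosintes and maize lines at 0.4 mm the design was too small for any set to pass. Of 24 pangene sets tested, 0% passed, with a lowest exact permutation p of 0.0667 and a lowest adjusted p of 0.96. The smallest p the design allows is 0.0667 to 0.333 depending on the set, so this says nothing of whether the sets differ. Set 1 had a mean of 0.392 RPM in TIL11 and 0 in TIL25, against 0.684, 0.378, 0.655 and 0.543 RPM in B73, HP301, Il14H and Oh43 (log2 difference -1.42, exact p = 0.133). Set 5, which had no TIL25 gene, had 0.955 RPM in TIL11, against 0.304, 0.810 and 0.154 RPM in B73, HP301 and Il14H (1.33, exact p = 0.5). The median difference was -0.87 over the 5 miR171 sets, 4 lower and 1 higher, and -0.10 over all 24, 13 lower and 11 higher. The TIL25 zeros lie in the shallow libraries described above, and the part of depth in them was not tested.

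In *ago18* plants, miR171 cleavage was close to the limit of detection, and no member gene passed the comparison of *ago18*HM with *ago18*HT. Of 8 member genes tested, 6 were lower and 2 higher in *ago18*HM, and of all 215 genes tested 65.6% were lower. Of these 215 genes, which had a site of any miRNA in at least 3 libraries, 0% passed (limma). An unadjusted p below 0.05 was reached by 19 with limma and by 7 with the exact permutation test, which called 0 as well. The median log2 difference was -0.20 over the 8 genes and -0.12 over all 215. With the libraries centred, these medians were -0.067 and 0.015. All listed values of the 6 named genes in *ago18* anthers rested on at most 6 reads.

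Zm00001eb074460 of set 3 had the largest difference of the 8. At 0.5 mm it was listed in none of the 3 *ago18*HM libraries, against 0.522 and 0.420 RPM in *ago18*HT. At 2 mm it had 0, 0 and 0.126 RPM in *ago18*HM, against 0.269, 0 and 0.10 RPM in *ago18*HT. At 5 mm it had 0, 0 and 0.206 RPM in *ago18*HM, against 0.321, 0.336 and 0.0921 RPM in *ago18*HT. It was thus listed in 2 of 9 *ago18*HM and 7 of 8 *ago18*HT libraries, each *ago18*HM value resting on 1 read. The log2 difference averaged over lengths was -1.42 (SE 0.33, adjusted p = 0.0617, range over alternatives 0.0189 to 0.448). It passed without ago18HM-2mm replicate 3 (-1.55, adjusted p = 0.0493), ago18HM-5mm replicate 3 (-1.60, adjusted p = 0.0292) or ago18HT-2mm replicate 2 (-1.58, adjusted p = 0.0222). At 0.5 mm alone it was called (-2.51, SE 0.61, adjusted p = 0.0265), in a contrast in which 5.58% of the 215 genes were called, 0.93% higher and 4.65% lower. The limit that 0 reads allow in the *ago18*HM libraries of 0.5 mm was 0.555 to 2.23 RPM, above both *ago18*HT values, so the difference at 0.5 mm was not detectable library by library at this depth. The difference was not called at 2 mm (-0.57, adjusted p = 0.963), where 1.4% of the genes were called, all of them lower, or at 5 mm (-1.18, adjusted p = 0.74), where 0% were. The change of the genotype difference between 2 and 0.5 mm was not called either (adjusted p = 0.375), with 1.86% of the genes called.

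The other genes in *ago18* anthers overlapped between genotypes at nearly every length. Zm00001eb186770 of set 1 had 0.743, 0 and 0.180 RPM in *ago18*HM at 0.5 mm, against 0.441 and 0.161 RPM in *ago18*HT, and the value of 0.743 RPM was 1 read of the shallowest library. It averaged 0.114 ± 0.244 RPM in *ago18*HM (SD, n = 9) and 0.108 ± 0.152 RPM in *ago18*HT (SD, n = 8) over all lengths, and the 95% interval of its log2 difference ran from -1.12 to 0.54. Zm00001eb023010 of set 5 had 0, 0.370 and 0 RPM in *ago18*HM at 0.5 mm, against 0.662 and 0.161 RPM in *ago18*HT. It stayed at or below 0.125 RPM in both genotypes at 2 and 5 mm. Zm00001eb429450 of set 2 was listed in 2 *ago18*HM libraries, with a highest value of 0.212 RPM, and in 5 *ago18*HT libraries, with a highest value of 0.250 RPM. Zm00001eb249840 and Zm00001eb379340, which are in no set, reached 0.586 RPM (1.3 reads) and 0.175 RPM (1 read) in *ago18*HM, against 0.322 and 0.139 RPM in *ago18*HT. The adjusted p of the 7 genes other than Zm00001eb074460 was at least 0.866.

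With anther length in *ago18* plants, 8.37% of the 215 genes were called between 2 and 0.5 mm, 5.12% higher and 3.26% lower, and 6.05% between 5 and 2 mm, 0.93% higher and 5.12% lower (2 and 11 genes, or 3 and 7 with each library centred on its mean over all genes). No member gene was among them. Zm00001eb186770 came nearest, with 0 RPM in all 3 *ago18*HM libraries and 0, 0.125 and 0 RPM in *ago18*HT at 2 mm, against the 0.5-mm values above. The log2 difference of 2 mm from 0.5 mm was -1.52 (SE 0.49, adjusted p = 0.0773, range over alternatives 0.00943 to 0.416), and without ago18HM-0.5mm replicate 2, the library at 0, it was -1.90 and passed (adjusted p = 0.00943). Zm00001eb379340 was listed at 5 mm alone in *ago18* plants, at 0.175 RPM in 1 *ago18*HM library and 0.125 and 0.139 RPM in 2 *ago18*HT libraries (5 mm from 2 mm 0.65, SE 0.29, adjusted p = 0.243).

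**Figure D5:**
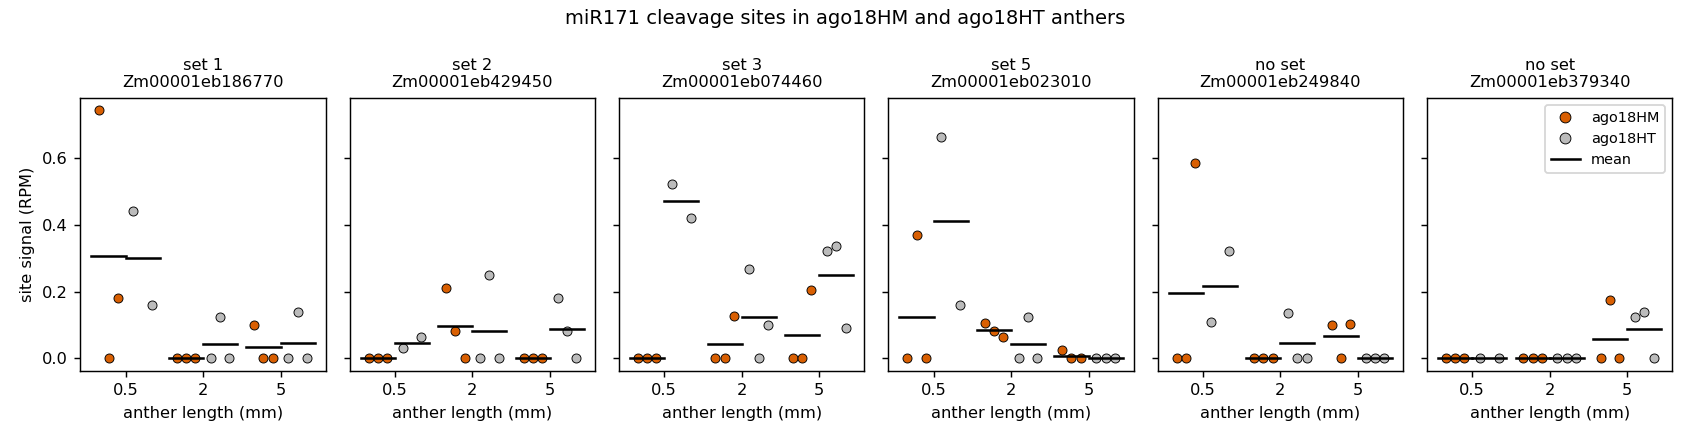
Signal at miR171 sites (y axis, RPM) of 6 B73-genome genes by anther length (x axis, mm), *ago18*HM left of *ago18*HT; each point is 1 library and each bar the mean of 2 or 3. Zm00001eb074460 was unlisted in all 3 *ago18*HM libraries of 0.5 mm, against 0.522 and 0.420 RPM in *ago18*HT, and most other points lie at 0 or near 1 read.

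The remaining named genes of maize stand alone in their lines. In Il14H, Zm00028ab075320, the single gene of set 6, had the highest single value of that line, with 0.133 and 0.186 RPM at 2 mm, against 0.0877, 1.02 and 0.751 RPM at 0.4 mm. Zm00039ab023320 in Oh43, in no set, was cut 3 nt apart like set 5, at position 1228 by miR171c in 2 libraries and 1231 by miR171a in 1, and had 0, 0.139 and 0.335 RPM at 2 mm, against 0.754 and 0 RPM at 0.4 mm. No other miRNA had a site on a member gene at an Allen score of at most 4, the 66 sites listed there on 8 genes all scoring higher.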

How the data were processed

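Anther RNA was profiled by nanoPARE and Smart-seq2 from 5 ng of total RNA per sample, with 76-nt single-end reads. Cleavage sites were called by the authors with the nanoPARE pipeline, library by library. Each of the 63 samples titled Smart-seq2 has a deposited table of miRNA sites and one of phasiRNA sites (126 in all). The pipeline version is not given in the sources used here. Target transcripts were the gene models of B73 RefGen_v5 (B73 and *ago18*), version 1 models of the other varieties, and for RIL003 models that the authors assembled. How nanoPARE reads were mapped is not given in the sources used here. The deposited RPM counts reads that begin at a site per 1000000 reads of the library. The deposited Allen score is a mismatch penalty, and the adjusted p-value of a site was computed by the authors. Their fold change, a ratio to background, was not used.

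Here the signal of a gene was the sum of RPM over sites with an Allen score of at most 4, the highest isoform counting, and an unlisted gene was 0. Features listed in at least 3 libraries were fitted on log2(RPM + 0.1) with limma 3.58.1 in R 4.3.3, p-values being adjusted over all features (Benjamini-Hochberg, two-sided, threshold 0.05). A difference on this scale understates the change of weakly cut genes. Varieties were compared by exact permutation of their means. Sets follow the study's list of 61 pangene sets, 7 of them for miR171. Depth was taken from the most frequent RPM value of a library as 1 read. In each library 76.7 to 88.0% of values were then whole reads, too few for a test on counts. The limit that 0 reads allow is 3 reads, for counting error only. The accuracy of the fits and of the depth recovery at signals as low as those of the miR171 genes was not tested. Alternatives were the pseudocount, the filter, the Allen score, the site rule, missing values, centring, a depth of at least 3 M reads (M, 1000000), a replicate block, the permutation test and leaving out each library. The genes described one by one are those of the 7 sets plus every other member whose site passed in 2 or more replicates of the same group. Members and lists were chosen with earlier results of these data known. The line NC358 was not analysed here.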

Additional observations from a re-analysis of the deposited data

Results flagged for a closer look

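For 3 pangene sets the later and earlier anthers were separated in opposite directions in different varieties, with no overlap of libraries within a variety. This difference between varieties was not tested. For set 1 the mean of later minus earlier anthers was 0.615 RPM in TIL25, with every 1.5-mm library higher, against -0.453 RPM in B73 and -0.598 RPM in Il14H, with every 2-mm library lower. For set 2 it was 1.08 RPM in TIL25 and 0.218 RPM in B73, against -0.350 RPM in Il14H and -0.602 RPM in Oh43. For set 3 it was 1.74 RPM in TIL25, against -0.675 RPM in Oh43. In TIL25 the earlier anthers are the libraries of 1.71 to 2.56 M reads, in which these 3 genes were unlisted. They were tested only because all 3 libraries of 1.5 mm listed them, which fixed their separation; the part of depth in these differences was not tested beyond the limits given above.

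A phasiRNA site was found on 1 member gene in data outside the miRNA tables. Zm00001eb432360, one of the members not described one by one, had a signal of 1.13 RPM (7 reads) at transcript position 927 in ago18HT-0.5mm replicate 2, with an authors' adjusted p of 0.0472 and an Allen score of 5. Its miR171 site lies at position 507. The phasiRNA site was listed in 5 libraries, of which 4 were *ago18*HM, and passed in 1. Over all members, phasiRNA tables held 68 listings on 10 genes, of which 1 passed.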

How the results depend on the processing

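The direction of the set or gene difference held under most alternatives, but the counts of calls rested on few genes and moved often. Apart from leaving out libraries, 107 of 165 counts of calls and other summaries stayed within 1.5 times or within the spread, and 360 of 398 differences of single genes or sets kept direction and side of the threshold. Causes of the changes were not tested. The smallest p of the permutation test was 0.005 for both length contrasts in *ago18* plants, 0.00216 in TIL11 and 0.1 in TIL25. At these values a single gene could not pass after adjustment, so 0 calls by permutation in these comparisons say little. Calls of miR171 members between *ago18*HM and *ago18*HT, 0 with all settings as reported, were 1 with an Allen score of at most 3 and 1 with sites passing the authors' adjusted p only. All calls were then 2 and 2, and 4 with no filter on listing. For 2 mm from 0.5 mm, members called were 1 with an Allen score of at most 3, with passing sites only or with libraries of at least 3 M reads, and all calls were 10 (Allen score at most 3), 59 (no limit), 8 (passing sites), 10 (unlisted as missing) and 0 (permutation), against 18. For 5 mm from 2 mm all calls were 5, 140, 1, 1 and 0 in the same order, against 13. In maize no miR171 set was called (0 against 1) with a pseudocount of 0.02, passing sites only, unlisted as missing, the replicate block or the permutation test, and all calls were 5, 1, 5 and 3 with that pseudocount, unlisted as missing, the block and the permutation, against 8. In TIL11 members called were 0 with a pseudocount of 0.02, no filter, the block and the permutation, and 2 with passing sites, against 1; all calls were 9 (pseudocount 0.5), 54 (no Allen limit), 1 (unlisted as missing), 8 (centred) and 0 (permutation), against 5. In TIL25 members called were 1 (pseudocount 0.5), 1 (no filter), 4 (passing sites), 0 (unlisted as missing), 0 (centred), 1 (block) and 0 (permutation), against 2, and all calls were 7, 7, 13, 0, 2, 8 and 0 in that order and 86 with no Allen limit, against 20. In RIL003 2 members were called after centring, against 0, and all calls were 26 (Allen score at most 3), 112 (no limit) and 19 (unlisted as missing), against 45. The share of miR171 sites passing was 94.3% at an Allen score of at most 3 and 70.6% at an adjusted p below 0.01, against 77.5%. Directions turned, all short of the threshold, for Zm00001eb023010 (*ago18*HM from *ago18*HT, 0.22 with at least 3 M reads), Zm00001eb249840 (0.0085 with passing sites, 0.0058 centred), Zm00001eb379340 (0.026 centred), Zx00003aa020698 (-1.32 with unlisted as missing), set 2 between teosintes and maize (0.37 with unlisted as missing) and set 4 (0.073 with a pseudocount of 0.5, 1.31 with unlisted as missing).

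Leaving out 1 library gave 0 to 1 members and 0 to 2 calls in all between *ago18* genotypes, 0 to 1 and 9 to 20 for 2 mm from 0.5 mm, 0 to 2 and 5 to 8 in maize, 0 to 3 and 2 to 9 in TIL11, and 0 to 3 and 0 to 27 in TIL25. The difference of Zm00001eb249840 between genotypes ran from -0.44 to 0.039, that of Zm00001eb186770 for 5 mm from 2 mm from -0.028 to 0.38, and that of set 4 between teosintes and maize from -0.87 to 0.24. Where this leaves 1 library in a group, that library is assumed to vary like the other groups.

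No comparison met the bar for replicate numbers that pair the samples, a correlation over 0.1 in every pair: correlations of deviations of same-numbered libraries averaged -0.0363 to 0.0132 over the comparisons, with single pairs as low as -0.215. Libraries that correlated best with their own number were 9 of 16 in maize, 5 of 17 in *ago18*, 5 of 14 in TIL11, 2 of 6 in TIL25 and 2 of 8 in RIL003. With the replicate block, miR171 calls were 0 in maize (set 1 -1.06, adjusted p = 0.109), 0 in TIL11 and 1 in TIL25, and 0 in the other comparisons. The minimum of 3 M reads was not run for TIL25, where no 0.4-mm library reaches it, and removes no library in maize, TIL11 or RIL003.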
